A study of Mus musculus with 13 samples.

Results

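The insertions examined here are those in and around the Hox, Dlx and Irx homeobox clusters of the mouse genome. The members are 52 listed genes: 38 Hox genes, their neighbours Evx1 and Evx2, 6 Dlx genes and 6 Irx genes. All 52 were found in the GENCODE annotation of build GRCm38. Each gene was extended by 100 kb on both sides and overlapping windows were joined, which gave 13 windows covering 3.27 Mb. The Hoxa window holds 11 listed genes (Hoxa2 to Hoxa13 and Evx1), Hoxb holds 10, Hoxc holds 9 and Hoxd holds 10 including Evx2. Dlx1 and Dlx2, Dlx3 and Dlx4, and Dlx5 and Dlx6 form 1 window each, and each of the 6 Irx genes has its own. An insertion site is a group of deposited read positions within 10 bp of each other, placed at its most-read position. Of 31146 sites in the plasmid pool, 38 lay in these windows, and of 746 sites in the remobilized pool, 5 did.

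The study labelled the genome of F123 cells, an embryonic stem cell line from a Castaneus by 129 hybrid mouse kept in nDiff227 with 2i/LIF, by means of a Sleeping Beauty transposon that carries a T7 promoter. T7 polymerase acting on purified genomic DNA copies the junction between transposon and genome into RNA, and sequencing of that RNA gives the insertion site. The plasmid pool (rnd) holds cells whose transposons jumped from transfected plasmids present in many copies. In the remobilized pool (post), the transposons of the TRACK-IT parental line had moved after Sleeping Beauty was expressed. A control (ctrl) has no transposon. These 3 libraries carry the genotype wild type and 1 batch label. A further 9 libraries come from single clonal lines with the genotype rad21-dTag and another batch label, and the parental line itself was not analysed here. There is 1 library per group, so no value has a replicate check. Intervals and tests cover the counting error of the libraries and not the spread between libraries or cultures. Reads amplified by PCR are not independent molecules.

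Hox genes encode homeodomain transcription factors that give cells their position along the head to tail axis. They lie side by side in 4 clusters, and their order on the chromosome follows the order of the body regions in which they act. Dlx genes, found as convergent pairs, pattern the forebrain, the branchial arches and the limbs. Irx genes encode Iroquois factors with roles in heart, neural tube and limb patterning, and they lie far apart within large gene-poor loci. In embryonic stem cells these loci are known as mostly silent regions bound by Polycomb complexes. Sleeping Beauty integrates at TA dinucleotides, which the host repair copies on both sides of the insert.

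The deposited sites can be seen against their bases where a GENCODE transcript covers them. Of the sites in member windows, 38 in the plasmid pool and 5 in the remobilized pool, 2 lay in such exons, both from the plasmid pool. They are shown on the plus strand with the TA at the insertion in capitals. The first is chr11:96346918-96346947 in an exon of Hoxb3, which also overlaps an exon of the antisense RNA Hoxb3os. The second is chr6:52244497-52244526 in an exon of Hoxa11os, the antisense partner of Hoxa11, and within an intron of Hoxa11.
Hoxb3 site: tcgaagggcacaaagTAtgtttctctccta
Hoxa11os site: tatattgcttgagcTAagtgggctacttta
Across the whole plasmid pool, 1438 sites had known bases, and 92.8% of them had a TA starting within 2 bp of the junction. In the remobilized pool the share was 92.5% of 53 sites. Over all positions of the same exons with known bases, 22.2% had a TA as near.

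TA dinucleotides were also counted in the promoters of the members, which are a small part of each cluster. RefSeq start regions of build GRCm38.p6 (250 bases before the start, in gene orientation) were matched for 29 of the 52 members, with 31 promoters. TA was counted on both strands at once, since it is its own reverse complement, and 1.32% of all 31396 promoters held none. The members had a median of 6 TA per promoter and all promoters a median of 9. The median GC content was 59.2% in the members and 52.4% in all. The range among members ran from 1 TA (Hoxa3 and Irx2) to 19 (Hoxb8 and Hoxd4). Hoxa3, Irx2 and Hoxb8 are printed as the ends of that range together with Hoxd9, whose promoter lay 1.21 kb from a plasmid pool site, and every TA is in capitals. Their positions are chr6:52213068-52213317 on the minus strand for Hoxa3, chr13:72628570-72628819 for Irx2, chr11:96281655-96281904 for Hoxb8 and chr2:74697513-74697762 for Hoxd9, the latter 3 on the plus strand.
Hoxa3 promoter: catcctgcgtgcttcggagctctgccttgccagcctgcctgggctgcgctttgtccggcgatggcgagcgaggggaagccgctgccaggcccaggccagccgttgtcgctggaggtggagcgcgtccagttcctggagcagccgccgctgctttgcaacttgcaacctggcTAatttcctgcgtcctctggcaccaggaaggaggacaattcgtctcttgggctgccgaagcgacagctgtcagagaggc
Irx2 promoter: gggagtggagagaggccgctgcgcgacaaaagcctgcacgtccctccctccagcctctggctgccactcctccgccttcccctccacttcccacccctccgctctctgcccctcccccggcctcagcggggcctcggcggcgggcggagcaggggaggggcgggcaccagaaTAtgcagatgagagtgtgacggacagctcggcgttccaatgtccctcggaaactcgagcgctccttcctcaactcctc
Hoxb8 promoter: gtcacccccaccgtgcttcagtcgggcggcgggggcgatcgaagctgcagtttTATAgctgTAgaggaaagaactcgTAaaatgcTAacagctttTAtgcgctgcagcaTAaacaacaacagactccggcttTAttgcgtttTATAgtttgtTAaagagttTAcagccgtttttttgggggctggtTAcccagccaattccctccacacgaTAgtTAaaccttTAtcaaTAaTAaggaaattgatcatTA
Hoxd9 promoter: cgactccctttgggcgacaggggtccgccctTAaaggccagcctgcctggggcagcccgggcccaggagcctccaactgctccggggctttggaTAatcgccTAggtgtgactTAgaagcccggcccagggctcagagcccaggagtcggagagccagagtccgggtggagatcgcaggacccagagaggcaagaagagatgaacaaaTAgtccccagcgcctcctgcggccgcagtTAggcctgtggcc
A promoter with 1 TA or none made up 4.11% of all promoters. None of the 31 member promoters held a plasmid pool site, and among all promoters 48 did, or 0.153%, so at this depth an empty promoter carries no information about a single gene.

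For the plasmid pool the file counts 78338 reads, 63031 of them at a genomic position, and 46.9% of its sites had 1 read. The remobilized pool held 2619 reads, 2116 of them placed, and 42.8% of its sites had 1 read. The control held 1 read and no site. The 9 clones together had 57 sites, none of them in a member window. In the plasmid pool, 29460 sites lay on the 19 autosomes, against 727 in the remobilized pool. The windows of all other protein-coding genes (each gene with 100 kb on both sides) served as the reference, at 12.9 sites per Mb in the plasmid pool (95% exact Poisson interval 12.8 to 13.1) and 0.368 per Mb in the remobilized pool (0.340 to 0.398).

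In the plasmid pool, the clusters were hit about as often as other genes, within wide counting error. The 12 windows other than Hoxa held 6 sites inside the gene clusters, in the stretch from the first to the last listed gene, which gave 11.7 per Mb (4.28 to 25.4). That density was 0.901 times that of other gene windows (exact interval of the ratio 0.331 to 1.96) and 0.863 times that of other gene bodies alone (0.317 to 1.88). Their flanks held 27 sites, 11.25 per Mb (7.41 to 16.4), a ratio of 0.869 (0.573 to 1.27). Without the Hoxd window the flank ratio was 0.597 (0.348 to 0.956), so the interval then no longer held 1. The density inside was 1.04 times that in the flanks (0.350 to 2.56). Each family taken alone had a ratio below 1. It was 0.689 for Hoxb, Hoxc and Hoxd together (0.215 to 1.94). For Dlx and Irx it was 0, with upper bounds of 14.3 and 10.9. A density inside the clusters other than Hoxa below 0.331 times the reference or above 1.96 times it lies outside the interval. Smaller differences were not detectable at this depth.

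By family, the counts were as follows, and no test compares the families. Hoxb, Hoxc and Hoxd together had 6 sites inside, 14.9 per Mb (5.48 to 32.5), and 13 in their flanks, 21.7 per Mb (11.5 to 37.1). The 3 Dlx windows had none inside their 0.0635 Mb, for which the interval reaches 58.1 per Mb, and 4 in the flanks, 6.67 per Mb (1.82 to 17.1). The 6 Irx windows had none inside their 0.0492 Mb, with an upper bound of 75 per Mb, and 10 in the flanks, 8.33 per Mb (4.00 to 15.3). Relative to other gene windows the flank ratios were 1.67 for these Hox clusters (0.891 to 2.86), 0.515 for Dlx (0.140 to 1.32) and 0.644 for Irx (0.309 to 1.18). Each of the 3 intervals held 1. Since 3 sites in the inner stretches would already give 47.2 per Mb for Dlx and 61.0 per Mb for Irx, the empty inner stretches do not show a low density.

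**Figure D1:**
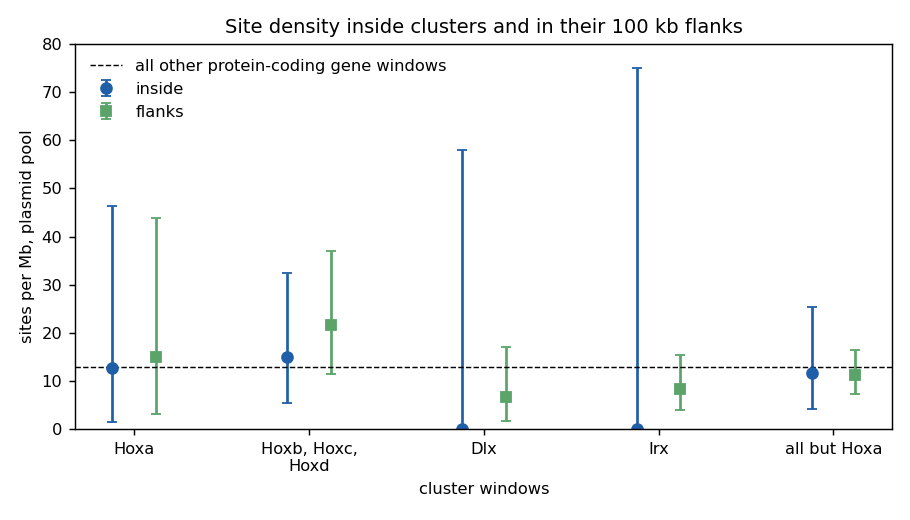
Sites per Mb in the plasmid pool inside the clusters (circles) and in their 100 kb flanks (squares), with 95% exact Poisson intervals; the dashed line is the density in all other protein-coding gene windows, 12.9 per Mb. Every interval crosses the line, and the empty inner stretches of Dlx and Irx have the widest ones.

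The Hoxa cluster (chr6:52162417-52318378, 156.0 kb), which patterns the hindbrain, trunk, limbs and reproductive tract, was the member window hit in both pools. In the plasmid pool it held 5 sites, all on the plus strand. Of these, 2 lay inside the cluster with 2 reads each: one at 52244512 in the intron of Hoxa11, a gene of limb and uterus patterning, and one at 52286907 between Hoxa13 and Evx1, in no annotated gene. The 3 flank sites had 1 read each, at 52113036 in an intron of the long noncoding RNA Halr1, at 52142864, 19.6 kb below Hoxa2, and at 52382150, 63.8 kb above Evx1. The density was 12.8 per Mb inside (1.55 to 46.3) and 15 per Mb in the flanks (3.09 to 43.8), and 66.6% of windows of the same length centred on other protein-coding genes held at most 5 sites.

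In the remobilized pool the Hoxa window also held 5 sites, each with 2 reads. Both sites inside the cluster, at 52187191 and 52193092, were on the plus strand in introns of Hoxa3, which acts in the hindbrain and in thymus and parathyroid formation. The same positions lie in introns of the antisense RNA Hoxaas3. The nearest listed gene start was that of Hoxa4, 4.56 kb and 1.34 kb away. The 3 others lay below the cluster: at 52076883, at 52103510 on the minus strand in an intron of Halr1, and at 52152983, 9.43 kb from the end of Hoxa2. No remobilized site fell between Hoxa5 and the upper end of the window, the side of Hoxa13 and Evx1. The density was 12.8 per Mb inside, 15 per Mb in the flanks and 14 per Mb over the window (4.56 to 32.8). Other gene windows of all autosomes had 0.368 per Mb. Chromosome 6, on which Hoxa lies, had 1.66 remobilized sites per Mb as a whole, against 0.302 over all autosomes. With flanks of 200 kb the flank density was 27.5 per Mb (13.7 to 49.2).

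Hoxb (chr11:96194316-96368256, 173.9 kb) had 5 plasmid pool sites, 3 of them inside. One lay at 96297651 on the minus strand with 2 reads, in introns of Hoxb6 and of the antisense RNA Hoxb5os. The site in the Hoxb3 exon at 96346933, printed above, had 1 read. The third, at 96360487 with 4 reads, lay between Hoxb2 and Hoxb1, the anterior genes of the cluster that act in the hindbrain, 5.27 kb from the start of Hoxb1. The flank sites, at 96116868 and 96444807, had 1 read each and lay over 75 kb from the cluster. No site fell in the long interval between Hoxb13 and Hoxb9, part of a site-free stretch of 180.8 kb. Over the window, 63.1% of equal windows held at most as many sites.

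Hoxc (chr15:102921103-103036852, 115.75 kb) had 2 sites. One at 103003648, on the minus strand with 1 read, lay in introns of both Hoxc5 and Hoxc6, whose annotated transcripts overlap. The other lay at 102908900, 12.2 kb from Hoxc13, a gene of hair and nail formation, and also had 1 read. Of equal windows, 25% held at most 2 sites.

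Hoxd (chr2:74652991-74765142, 112.2 kb), the cluster that patterns digits and the urogenital tract, held 12 sites, the most of the 13 windows. Only 2 were inside: 74696429 with 1 read, between Hoxd10 and Hoxd9 and 1.30 kb from the start of Hoxd9, in an intron of the noncoding RNA Gm14396, and 74754826 with 2 reads in an intron of Haglr, the noncoding RNA next to Hoxd1. The other 10 sites were in the flanks. On the Evx2 side were 6, from 74566833 in an intron of Lnpk, which encodes an endoplasmic reticulum protein, to 74628448, 24.5 kb from Evx2. One of these, at 74624395, had 4 reads. On the Hoxd1 side were 4, at 74771430, 74772243 and 74780781 with 1 read each and at 74830420 with 4 reads in an intron of Mtx2, which encodes a mitochondrial import protein. Over the whole window the density was 38.4 per Mb (19.9 to 67.2), and 0.687% of equal windows on other genes held at least as many sites. This window was singled out after its count was seen. The remobilized pool had none there.

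**Figure D2:**
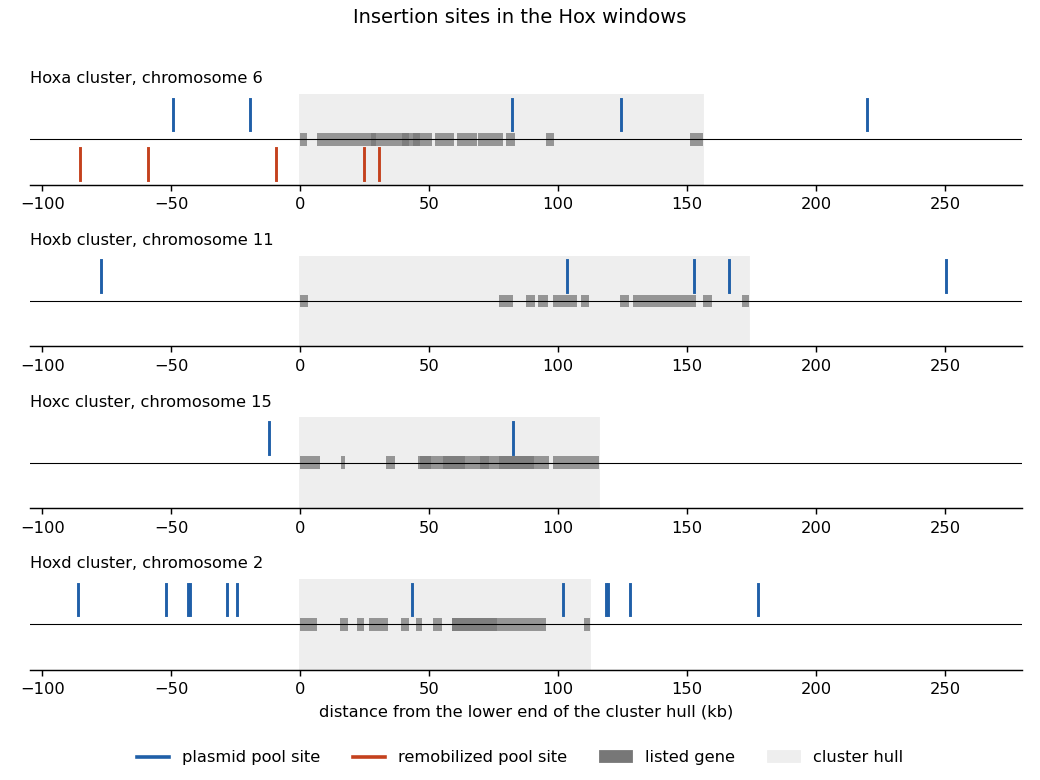
Sites of both pools in the 4 Hox windows, by distance in kb from the lower end of the cluster; long blue ticks above the line are plasmid pool sites, red ticks below it remobilized pool sites, dark boxes the listed genes and light shading the cluster. Of the 12 sites of Hoxd, 10 lie outside the shading, and red ticks occur in the Hoxa window alone.

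The Dlx pairs lie in short clusters of 18.6 kb, 26.1 kb and 18.8 kb, and none held a site. Around Dlx1 and Dlx2, which act in forebrain interneurons, there was 1 site, at chromosome 2 position 71494266 with 1 read in an intron of Metap1d, 33.8 kb from Dlx1. Around Dlx3 and Dlx4, which act in placenta, skin, teeth and hair, there was none in 226.1 kb, and 6.61% of equal windows were empty too. Around Dlx5 and Dlx6, which act in the lower jaw and limbs, there were 3 on the Dlx5 side, at chromosome 6 positions 6924613 with 4 reads, 6927088 with 1 read and 6960149 with 2 reads, the last in an intron of Sdhaf3. The nearest was 42.5 kb from Dlx5. No remobilized site lay in the Dlx5 and Dlx6 window, although it is on the same chromosome as Hoxa, or in the other Dlx windows.

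None of the 6 Irx genes held a site in its own span of 3.54 kb to 18.7 kb. Irx1 had sites on both sides, at chromosome 13 positions 71920170 with 4 reads and 71991012 with 2 reads. Irx4, a gene of the heart ventricle, had 3, at 73200234 with 5 reads, the most of any member site, at 73249950, 10.5 kb from the gene, and at 73343473. Irx2 had none. On chromosome 8, Irx3 had 1 site with 1 read at 91790630, 7.90 kb below the gene. Irx6 had 4, at 92579921, 92739041, 92739171 and 92770438, the middle pair close together on opposite strands and with 1 read each. Irx5, which acts with Irx3 in heart and limb development, had none. Empty windows of the same length made up 8.41% of those on other genes for Irx2 and 7.16% for Irx5.

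**Figure D3:**
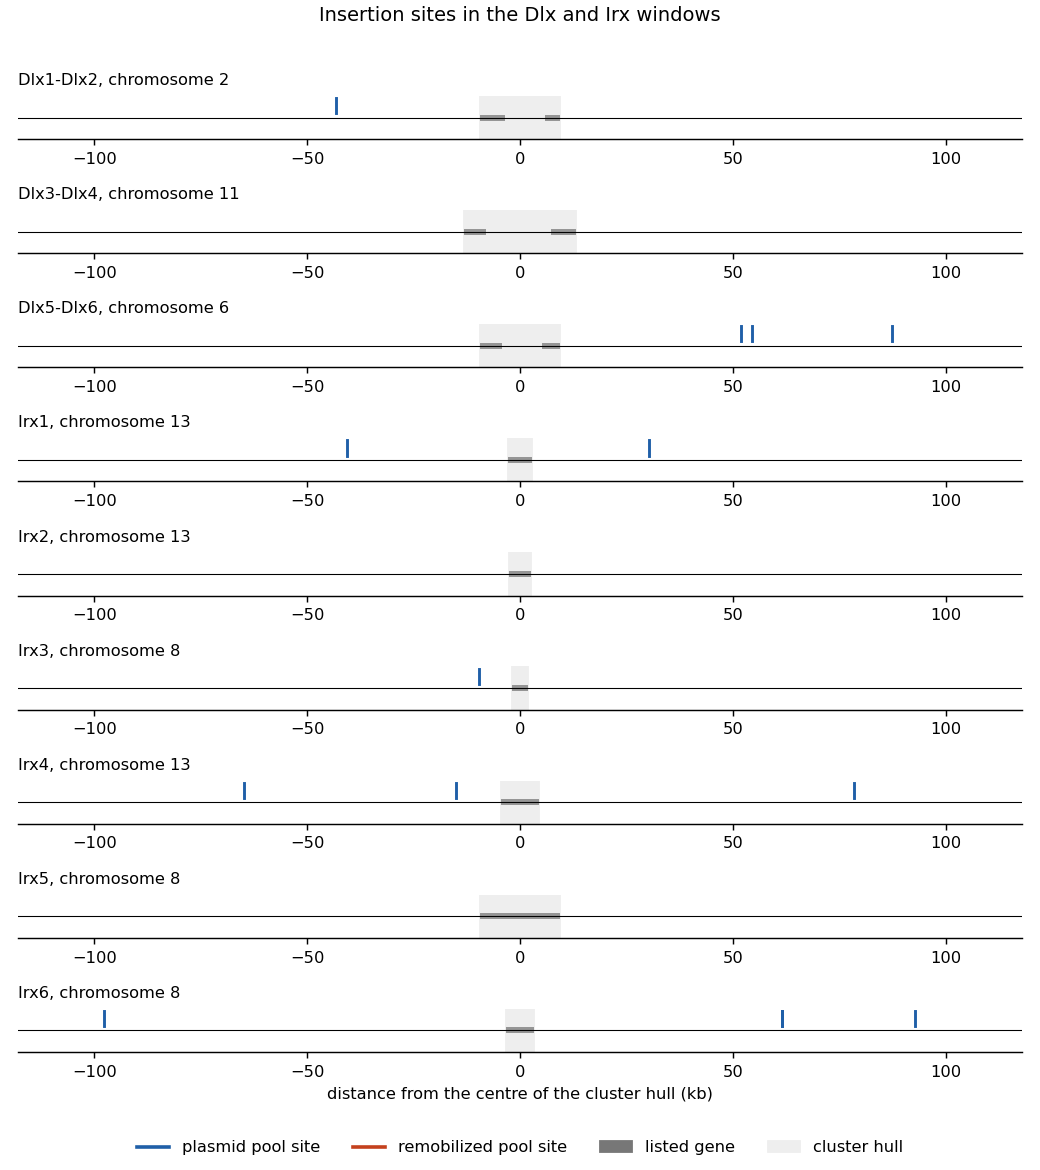
Sites in the 3 Dlx and 6 Irx windows, by distance in kb from the centre of each cluster or gene; blue ticks are plasmid pool sites, dark boxes listed genes and light shading the cluster or gene. No tick falls on a shaded stretch, the Dlx3-Dlx4, Irx2 and Irx5 windows are empty, and no remobilized site is present.

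Irx genes lie in loci longer than their windows, so the whole stretches were counted as well, a choice made after the windows were seen. From Irx1 to Irx4 (1312 kb) there were 7 plasmid pool sites, 5.34 per Mb (2.15 to 11.0), and 2.04% of equal stretches centred on other genes held at most as many, with a median of 16. From Irx3 to Irx6 (882.4 kb) there were 3 sites, 3.40 per Mb (0.701 to 9.94), and 0.914% of equal stretches held at most 3, with a median of 11. All 3 lay between Irx5 and Irx6. The 555.6 kb between Irx3 and Irx5 held none, which 0.140% of equal stretches shared. Of the other stretches between neighbours, Irx1 to Irx2 held 2 sites (1.73% of equal stretches held at most as many), Irx2 to Irx4 held 5 (22.4%) and Irx5 to Irx6 held 3 (46.8%), so the latter 2 lay well within the range of other genes. Irx3 and Irx5 thus sat in 1 stretch of 704.9 kb without a plasmid pool site, and 0.202% of protein-coding genes lay in a stretch at least as long. That stretch held 1 remobilized pool site, at 92224286 with 1 read, 133.3 kb from Irx5. The Dlx1 and Dlx2 pair sat in a site-free stretch of 484.9 kb (2.80% of genes in one at least as long), and Dlx3 and Dlx4 in one of 409.5 kb (5.17%). The median over members was 98.4 kb, and over all genes 132.8 kb. Neighbouring members often lie in the same stretch, so the member median depends on how many genes each cluster holds. Gene-poor loci are compared here with stretches centred on genes, and the part that gene content, mappability or TA content has in these counts was not tested.

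Counted gene by gene, with 100 kb on both sides of each, the members had a median of 3 plasmid pool sites, the same as all 20807 autosomal protein-coding genes. Neighbours share sites, since their windows overlap. Of the 52, 4 (Dlx3, Dlx4, Irx2 and Irx5) had an empty window, against a background of 6.58% of all genes, and these 4 share 3 joined windows. At least 1 site was present for 92.3% of members and 93.4% of all genes. The Hoxd window genes stood highest: Hoxd9, Hoxd10 and Hoxd11 had 10 each, Hoxd8 and Hoxd12 had 9, Hoxd13, Evx2 and Hoxd3 had 8, Hoxd4 had 7 and Hoxd1 had 6. Hoxa3, Hoxa4, Hoxa5, Hoxa6, Hoxb1, Hoxb2, Hoxb3 and Irx6 had 4. Hoxa2, Hoxa7, Hoxa9, Hoxa10, Hoxa11, Evx1, Hoxb4, Hoxb5, Hoxb6, Hoxb7, Hoxb8, Hoxb9, Dlx5, Dlx6 and Irx4 had 3. Hoxa13, Irx1 and Hoxc5 to Hoxc13 (Hoxc5, Hoxc6, Hoxc8, Hoxc9, Hoxc10, Hoxc11, Hoxc12 and Hoxc13) had 2, and Hoxb13, Hoxc4, Dlx1, Dlx2 and Irx3 had 1.

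Within the transcribed span of the gene itself, 5 of the 52 had a plasmid pool site: Hoxa11, Hoxb3, Hoxb6, Hoxc5 and Hoxc6. That is 9.62%, against a background of 30.2% of all genes. The members are short, with a median of 4.99 kb against 17.6 kb. Among the 14731 genes in the members' length range of 1.85 to 49.99 kb the share was 18.4%. The median length of those genes was 12.9 kb, so they were not matched to the members in length. Hoxc5 and Hoxc6 also share a site. Per length, the members' spans held 4 sites in 372.5 kb, 10.7 per Mb (2.93 to 27.5), or 0.795 times the density in other gene bodies (0.217 to 2.04). The distance from a member to its nearest plasmid pool site had a median of 18.6 kb (quartiles 7.21 and 34.3 kb), against 13.6 kb for all genes. It was 0 for those 5, 1.30 kb for Hoxd9 and 1.32 kb for Hoxd10, and longest for Dlx4 at 177.7 kb and Dlx3 at 198.6 kb.

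Each gene's count was tested against the autosomal mean density with a two-sided exact binomial test, adjusted by the Benjamini-Hochberg method over all 20807 genes. No member was called higher (0.365% of all genes were) and none lower, with a background of 0%. At an unadjusted p under 0.05 there were 10 members higher, all of them genes of the Hoxd window and so sharing most of their sites, against 6.31% of all genes, and 0 lower (0.240%). Hoxd9 had 10 sites where 2.48 were expected (exact binomial p = 0.000262, adjusted 0.0698). Hoxd10 with 2.49 expected had an adjusted p of 0.0700 in the exact binomial test, and Hoxd11 with 2.54 one of 0.0765. Hoxd8 and Hoxd12 followed at an adjusted 0.181. An empty single-gene window gives an exact p of 0.0833 to 0.195, while the largest p called over all genes was 0.000142. This depth therefore could not have called a member as lower.

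**Figure D4:**
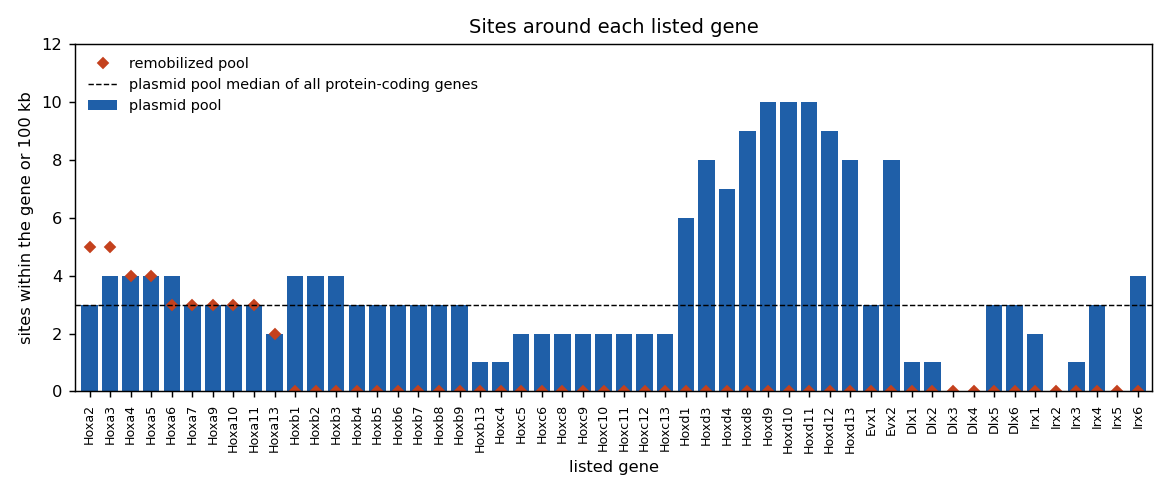
Sites within each listed gene and 100 kb on both sides; bars are the plasmid pool, diamonds the remobilized pool, and the dashed line the plasmid pool median of all protein-coding genes, 3 sites. Hoxd genes reach 10 sites, 4 genes have no bar, and diamonds above 0 occur for the 10 Hoxa genes alone.

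In the remobilized pool, 10 of the 52 members had a site in their window, against a background of 10.5% of all genes. The 10 were Hoxa2, Hoxa3, Hoxa4, Hoxa5, Hoxa6, Hoxa7, Hoxa9, Hoxa10, Hoxa11 and Hoxa13, which share the 5 sites of the Hoxa window, so this is 1 region and not 10 independent genes. Evx1, at the far end of that window, had none. None of the 41 members outside the Hoxa window had one. Those 12 windows held 0 sites in 2.91 Mb, with an upper bound of 1.27 per Mb, and a count of 3 sites would be 1.03 per Mb. The reference of 0.368 per Mb lies below both, so the empty windows cannot be told from the rest of the genome.

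Both pools were then compared gene by gene with Fisher's exact test on site counts and library totals, adjusted over all 20807 genes, which compares 2 libraries and not conditions. The test called 4 members higher in the remobilized pool, against a background of 0.38%, and none lower, with a background of 0%. Hoxa2 had 5 remobilized and 3 plasmid pool sites (odds ratio 68.0, adjusted exact p = 0.00125). Hoxa3 had 5 and 4 (odds ratio 51.0, adjusted exact p = 0.00172). Hoxa4 and Hoxa5 had 4 and 4 (odds ratio 40.7, adjusted exact p = 0.0125). Hoxa7, Hoxa9, Hoxa10 and Hoxa11, with 3 and 3, did not pass (adjusted exact p = 0.0517), nor did Hoxa6 with 3 and 4 (0.0827) or Hoxa13 with 2 and 2 (0.348 by the same exact test). Evx1 had 0 and 3. With sites within 50 kb in place of 100 kb, 2 members were called, Hoxa4 and Hoxa5, and with 200 kb there were 10. Over all 20807 genes the calls were 79 with 100 kb, 35 with 50 kb and 132 with 200 kb.

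Chromosome 6 as a whole held 244 remobilized and 1755 plasmid pool sites. With those totals in place of the genome's and p-values adjusted over the genes of chromosome 6 alone, an alternative chosen after seeing the data that changes both at once, no member was called, against 0.450% of the 1112 genes on that chromosome. Hoxa2 then had an odds ratio of 12.2 (exact p = 0.00107, adjusted 0.132) and Hoxa3 one of 9.16 (exact p = 0.00217, adjusted 0.150). Hoxa2, Hoxa3, Hoxa4 and Hoxa5 were thus called with genome totals and adjustment over all genes, and not with both taken from chromosome 6.

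Around Hoxa, the remobilized sites were unevenly spread. In the 10 successive 100 kb steps that lead up to the lower edge of the cluster there were 7, 33, 29, 29, 9, 0, 0, 3, 8 and 3 remobilized sites. In the same steps the plasmid pool had 2, 1, 0, 0, 2, 1, 2, 1, 1 and 2. Inside the cluster each pool had 2, and above it the first 3 steps had no remobilized site, with 1, 2 and 3 of the plasmid pool. The clone named 5kb in the labels had its most-read site at 51321894, 840.5 kb below the cluster, in the step with 33 remobilized sites. Between that site and the Hoxa window, 740.5 kb long, the remobilized pool had 92 sites and the plasmid pool 7. The equal stretch on the other side of the clone site had 27 and 6. The Hoxa window's own mirror image there had 3 remobilized sites and 0 of the plasmid pool, against 5 and 5 in the Hoxa window. The 356.0 kb next above the Hoxa window had 2 and 9. Hoxa lies beyond the upper end of the densest steps, which are followed by 2 steps with no remobilized site, and the 3 steps next to the cluster held 3, 8 and 3.

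**Figure D5:**
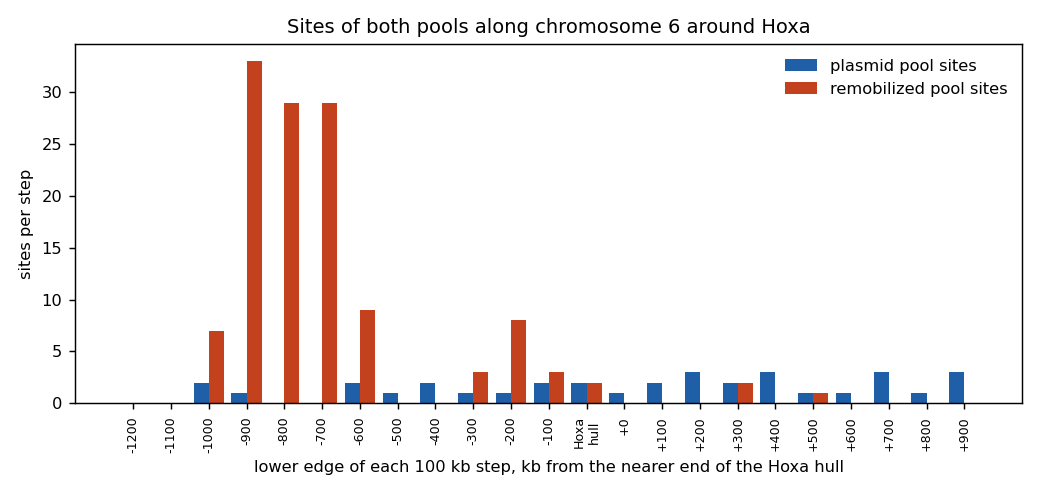
Sites in 100 kb steps along chromosome 6 below and above the Hoxa cluster, and inside it; blue bars are the plasmid pool and red bars the remobilized pool, and labels give each step's lower edge in kb from the nearer end of the cluster. Red bars peak at 33 sites in the step that begins 900 kb below, reach 8 in the step that begins 200 kb below, and are 2 inside the cluster.

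Member sites rested on few reads. Of the 38 plasmid pool sites, 20 had 1 read (52.6%, exact binomial interval 35.8 to 69.0), an interval that holds the 46.9% of the whole library, and the highest had 5. None of the 5 remobilized member sites had 1 read (exact binomial interval 0 to 52.2%), against 42.8% of that library. Plus-strand sites were 20 of 38. Inside the clusters 3 of 8 had 1 read, and in the flanks 17 of 30. Sites in any annotated gene were 13 of 38. Counting at least 2 reads left 5.83 per Mb inside the clusters other than Hoxa, 5.42 in their flanks and none in the Hoxa flanks, where all 3 plasmid pool sites had 1 read. With that minimum also applied to other gene windows, the ratios to them were 0.829 inside (0.171 to 2.42) and 0.771 in the flanks (0.410 to 1.32).

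Base composition differed between the clusters and other genes. In exons, the inner parts of the clusters other than Hoxa held 37.4 TA per kb and Hoxa 41.5, against 48.0 in other gene bodies. Irx stood lowest at 30.5 and Dlx at 33.5, while Hoxb, Hoxc and Hoxd had 39.5. CG dinucleotides went the other way, at 44.9 per kb in clusters other than Hoxa, 37.4 in Hoxa and 20.3 in other gene bodies. The part of these differences in the site counts was not tested, since the bases of introns and of the stretches between genes, promoters apart, were not used here.

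Crowding of genes was looked at in the 4 Hox clusters. Among windows of the same length with at least 8 protein-coding starts, the mean was 2.04 sites for the length of Hoxa, which had 2, and 2.26 for that of Hoxb, which had 3. It was 1.49 for Hoxc, which had 1, and 1.43 for Hoxd, which had 2. Each count lay within 1 site of its mean.

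Hox cofactors and upstream regulators, Polycomb and Trithorax genes, and other developmental transcription factors were read from lists, with the same tests over all genes. Of 15 Hox cofactors and upstream regulators, 14 lay on the autosomes, and all 14 had a plasmid pool site within 100 kb, with a median of 4. The homeodomain cofactor Pbx3 had 10. Of 28 Polycomb and Trithorax genes, 26 were matched and 24 had a site, with a median of 2.5. Ezh2, the histone methyltransferase of Polycomb complex PRC2, had 11 and also 3 remobilized sites (adjusted exact p = 0.428), on chromosome 6 like Hoxa. Ezh1, its paralog, and Phc1 had none in the plasmid pool. Of 50 other developmental transcription factors, 44 had a site, with a median of 3. Pax2 had 8, and Emx2, En1, En2, Gata2, Msx1 and Sox9 had 0. No gene of the 3 lists was called in either direction in either test, against backgrounds of 0.365% higher in the plasmid pool and 0.38% higher in the remobilized pool.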

How the data were processed

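Sites were read from 1 processed file per library of T7 in situ transcript sequencing (12 of 13 samples). Each line of the deposited files gives a position, a strand and a raw read count made by the authors. FastQC, BWA, deepTools and build mm10 are named in the submitters' processing notes, with no role or order. Mapping filters and the treatment of duplicates are not given in the sources used here. Lines at no genomic position were left out of the sites.

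Lines within 10 bp were merged, and densities were taken over autosomes from position 3000001 to the last gene end. Intervals are 95% exact Poisson intervals, or exact conditional binomial intervals for ratios. The tests are exact binomial and Fisher's exact tests per gene, two-sided, with the Benjamini-Hochberg method over 20807 genes and a threshold of 0.05. All other protein-coding windows were counted in place of random draws. Python 3.11.15, numpy 2.4.6, scipy 1.17.1 and matplotlib 3.10.9 were used, and the counting and tests were checked on simulated data. The simulated sites were drawn at uniform positions, with extra sites planted in some windows. That check does not cover sites spread unevenly over the genome.

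The members and lists were chosen with earlier results of these data known. Named were each window and its listed genes, sites inside a cluster, remobilized sites in a window, and the most-read and nearest plasmid pool site of a window; the other member sites were added after their values were seen. Alternatives changed the merging distance, read minimum, window size, reference windows and totals. A density per TA in the genome was not run because no genome sequence was used here. No value rests on a replicate, since each group has 1 library.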

Additional observations from a re-analysis of the deposited data

How the results depend on the processing

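Of 94 alternative values over 12 results, 87 stayed within the counting interval of the reported density or ratio, or kept the count of called members. Among those 87, the ratio inside clusters other than Hoxa went from 0.901 to 1.04 without merging, and the remobilized density in flanks other than Hoxa from 0 to 0.455 per Mb with flanks of 200 kb. The remobilized density in the Hoxa flanks, 15 per Mb as reported, was 27.5 with flanks of 200 kb and 10 with 50 kb. Leaving out 1-read sites lowered the plasmid pool density to 5.83 per Mb inside clusters other than Hoxa, 5.42 in their flanks and 0 in the Hoxa flanks, since fewer sites were counted, with ratios to other gene windows of 0.829 inside and 0.771 in flanks. Members called higher in the remobilized pool were 4 as reported (79 of all 20807 genes called), 9 with at least 2 reads per site (76 of all genes), 2 with 50 kb on each side (35), 10 with 200 kb (132), 0 with sites outside chromosome 6 as totals (an alternative that leaves out all members on chromosome 6) and 0 with chromosome 6 totals and adjustment over chromosome 6 genes, both changed at once and chosen after seeing the data. The cause of the differences with reads and window size was not tested. Leaving out each window in turn gave ratios to other gene windows of 0.681 to 0.969 inside clusters and 0.597 to 0.948 in flanks. The lowest inside was without Hoxb, and the lowest in flanks was without Hoxd, with an interval of 0.348 to 0.956 that no longer held 1. Adjusted exact binomial p-values of Hoxd9, Hoxd10 and Hoxd11, 0.0698 to 0.0765 as reported, were 0.394 to 0.401 with sites within 1 kb merged, 0.741 with at least 2 reads, 1 with 50 kb and 0.256 to 0.257 with 200 kb. Against gene-dense bins of 150 kb, chosen after seeing the data, the ratios were 0.726 inside and 0.701 in flanks. No paired analysis was possible because each group has 1 library. Depth limits a single empty window, which could not be called, and the remobilized pool, whose 727 autosomal sites leave most windows empty.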

Other observations

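The clonal lines had no site in a member window. In 8 of the 9 clones the most-read site lay on chromosome 6. The exception was the clone named 20kb in the labels, which had 568 reads at chromosome 11 position 6430192 and 526 at its chromosome 6 site. Taking the chromosome 6 site with the most reads in each clone, the clone named 260kb was nearest to Hoxa, 586.0 kb below the cluster, followed by 134kb at 710.8 kb, 70kb at 775.1 kb, 55kb at 791.2 kb, 20kb at 825.8 kb and 5kb at 840.5 kb. The clone named 2Mb lay 2868 kb below and 12Mb 13633 kb below, while 73Mb lay 72565 kb above. The reads behind these sites ranged from 55 in clone 55kb to 3048 in clone 2Mb.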
